A study of Arabidopsis thaliana with 6 samples.

Results

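Lipid transfer proteins (LTPs) of type 1 are small secreted proteins of plants whose conserved cysteines form disulphide bridges around a hydrophobic cavity that can hold a fatty acid or another lipid. They are abundant in the epidermis and are discussed as carriers of cutin and wax monomers to the cuticle, and several of their genes are known to be induced by abscisic acid (ABA), drought or salt. The genes described here are 10 Arabidopsis loci of this family, LTP3 (AT5G59320) and its relatives LTP4 (AT5G59310), LTP1 (AT2G38540), LTP2 (AT2G38530), LTP5 (AT3G51600), LTP6 (AT3G08770), LTP7 (AT2G15050), At2g18370, At5g01870 and At4g33355. The family was chosen by the higher signals of LTP3 and LTP2 in frb1-1 on these same arrays, on which both entered a published list of changed genes, so that their genotype difference is a description here and carries no test of its own. The other members were taken by locus as relatives, with these results known.

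Of the 10 loci, 4 could be matched to a probe set, the group of short oligonucleotides with which the ATH1 array measures a transcript. The annotation of the array names the probe sets of At2g18370 and At5g01870, and the published list of changed genes names those of LTP3 and LTP2. No probe set was matched to the other 6 loci, LTP4, LTP1, LTP5, LTP6, LTP7 and At4g33355, and their signals were not analysed here. All 4 matched probe sets passed the minimum set for testing, a mean log2 signal of at least 6 over all arrays. They are 4 of the 15218 probe sets tested and of the 22746 probe sets that are no controls. The IDs of the 4 probe sets do not mark them as shared by several genes, but LTP genes resemble each other closely and cross-hybridization between relatives was not tested.

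The arrays hold RNA of whole seedlings of accession Col-0, 10 days old. The study grew seedlings on half-strength MS medium in constant light or on full-strength MS medium with sucrose in long days. Its methods do not say which of these the array seedlings had. There were 3 biological replicates of the wild type, which carries FRB1, and 3 of the mutant frb1-1. In frb1-1 a T-DNA insertion lies upstream of the coding region of FRB1 (At5g01100), a gene for a Golgi protein needed for cell adhesion, and the allele is described as a partial loss of function. The arrays held a single insertion line of the mutant. Values are MAS 5.0 signal intensities, linear and not logarithmic, which the authors scaled to bring the trimmed mean of every array to about 500. In RNA of whole seedlings, fewer cells that express a gene and less RNA per cell cannot be told apart.

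The median signal of an array ran from 154 to 199, and the log2 signals of arrays of 1 genotype correlated at 0.918 to 0.972 and those of different genotypes at 0.920 to 0.962. No probe set was named for FRB1, for 7 epidermis markers or for 5 root markers, so that neither the labels nor the share of epidermis was checked with them. RCA, the activator of Rubisco in green tissue, was the only one of 9 green tissue markers with a named probe set, and its signal was 22730 to 31295 on wild-type arrays and 16255 to 23642 on frb1-1 arrays. Of 10 seed markers 3 had a named probe set. Their summed signal was 480 to 898 on wild-type arrays and 4747 to 7823 on frb1-1 arrays, most of it from CRA1, a seed storage globulin, which was 213 to 423 and 3993 to 7232. OLEO2, an oil body protein of seeds, had mean signals of 221 in the wild type and 601 in frb1-1. OLEO3, of the same family, had 102 and 87.6, with groups that overlapped. The probe sets of CRA1 and OLEO2 are named here only through the published list of genes changed on these arrays, so that the seed markers are no independent choice, and OLEO3 is the only one named by the annotation of the array. Of 7 tapetum and pollen markers, 4 had a named probe set of their own, and their summed signal was 83.0 to 136 on wild-type arrays and 88.6 to 129 on frb1-1 arrays, near background. The higher signals of CRA1 and OLEO2 go with the same genotype as those of LTP3 and LTP2, and their part in them was not tested.

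LTP3 and LTP2 had higher signals in frb1-1 seedlings, At5g01870 had a lower mean signal and At2g18370 differed by less than the spread between its arrays. LTP3 and LTP2 are called higher by limma at an adjusted p under 0.05, and no member is called lower. Among all tested probe sets 0.276% are called higher and 0.092% lower, and since the family was chosen through this contrast nothing is read from the count of members.

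**Figure D1:**
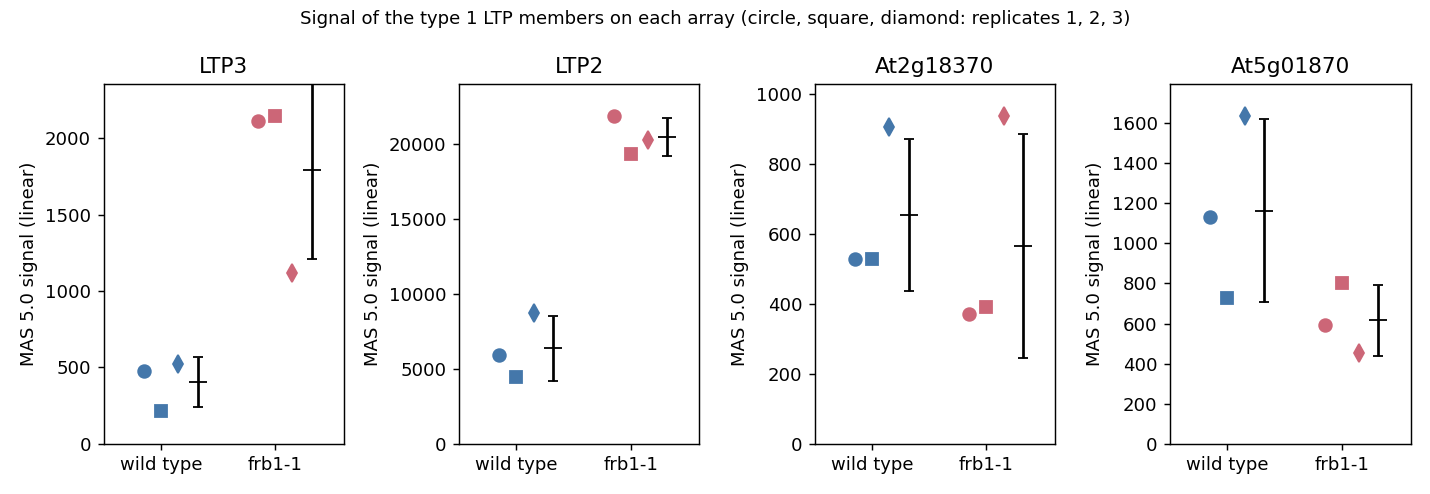
MAS 5.0 signal (linear scale, y axis) of LTP3, LTP2, At2g18370 and At5g01870 on each of the 3 wild-type (blue) and 3 frb1-1 (red) arrays, with the mean and SD in black. The groups are apart for LTP3 and LTP2 and overlap for At2g18370 and At5g01870.

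LTP3 is a gene that ABA and water shortage are known to induce. Signals of single arrays are given in the order of replicates 1, 2 and 3. Its wild-type arrays gave 474, 215 and 522 and its frb1-1 arrays 2111, 2143 and 1118. Every frb1-1 array was above every wild-type array, and the lowest frb1-1 array was replicate 3. The wild-type mean was 404 ± 165 (SD, n = 3) and the frb1-1 mean 1791 ± 583 (SD, n = 3), a ratio of 4.44. The log2 fold change, which is frb1-1 minus wild type in mean log2 signal, was 2.19 (SE, the standard error of limma, 0.36), the 19th highest of the 15218 tested probe sets.

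LTP2 is a gene of the epidermis of young shoots. Its wild-type arrays gave 5893, 4448 and 8752 and its frb1-1 arrays 21853, 19314 and 20250. The groups were apart by more than the spread of either, and the frb1-1 arrays lay close together. Their SD on the log2 scale was 0.09, against 0.49 for the wild-type arrays. The wild-type mean was 6364 ± 2191 (SD, n = 3) and the frb1-1 mean 20472 ± 1284 (SD, n = 3), a ratio of 3.22, and the log2 fold change was 1.74 (SE 0.23), the 54th highest. For comparison, the brightest probe set of each frb1-1 array had 32729, 38936 and 48435, and saturation of LTP2 was not tested.

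In LTP3, as in LTP2, the wild-type signal was lowest on replicate 2 and highest on replicate 3, so that both fold changes depend on which wild-type arrays are used. Without wild-type replicate 2 the log2 fold change was 1.79 for LTP3 and 1.51 for LTP2, and without wild-type replicate 3 it was 2.43 for LTP3 and 1.998 for LTP2. LTP3 was no longer called when replicate 1 or 2 of either genotype was left out, and LTP2 without wild-type replicate 1 or frb1-1 replicate 1. Neither was called when limma was run without its mean-variance trend. Both log2 fold changes stayed above 0 in all 14 alternatives run, from 1.79 to 2.74 for LTP3 and from 1.51 to 2.005 for LTP2. These alternatives reuse the arrays through which both genes were chosen.

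At5g01870 had a lower mean signal in frb1-1 that did not pass the test. Its wild-type arrays gave 1132, 725 and 1635 and its frb1-1 arrays 591, 804 and 452. The groups overlapped, since wild-type replicate 2 was below frb1-1 replicate 2. The wild-type mean was 1164 ± 456 (SD, n = 3) and the frb1-1 mean 616 ± 177 (SD, n = 3), a ratio of 0.529. The log2 fold change was -0.88 (SE 0.31, 95% interval -1.57 to -0.20, unadjusted p = 0.0163 and limma adjusted p = 0.633). An unadjusted p under 0.05 was found for 5.96% of the tested probe sets. The value was negative in all 14 alternatives, from -1.18 to -0.39, with adjusted p from 0.273 to 0.999.

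At2g18370 did not differ between the genotypes by more than the spread between arrays. Its wild-type arrays gave 529, 530 and 907 and its frb1-1 arrays 370, 391 and 937. The arrays of replicate 3 were the high ones in both genotypes. The wild-type mean was 655 ± 218 (SD, n = 3) and the frb1-1 mean 566 ± 322 (SD, n = 3), a ratio of 0.864. On the log2 scale the difference was -0.30 (SE 0.36, limma unadjusted p = 0.418 and adjusted p = 0.99998), and its 95% interval of -1.09 to 0.48 reaches from a fall to a small rise. Without both replicate-3 arrays, an alternative chosen after seeing the data, the remaining arrays did not overlap and the log2 fold change was -0.48 (adjusted p = 0.629). Over all tested probe sets with all 6 arrays, 10.9% had groups that did not overlap. Groups of fewer arrays separate more easily, and the share without the replicate-3 arrays was not computed. Nothing is read from this separation.

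**Figure D2:**
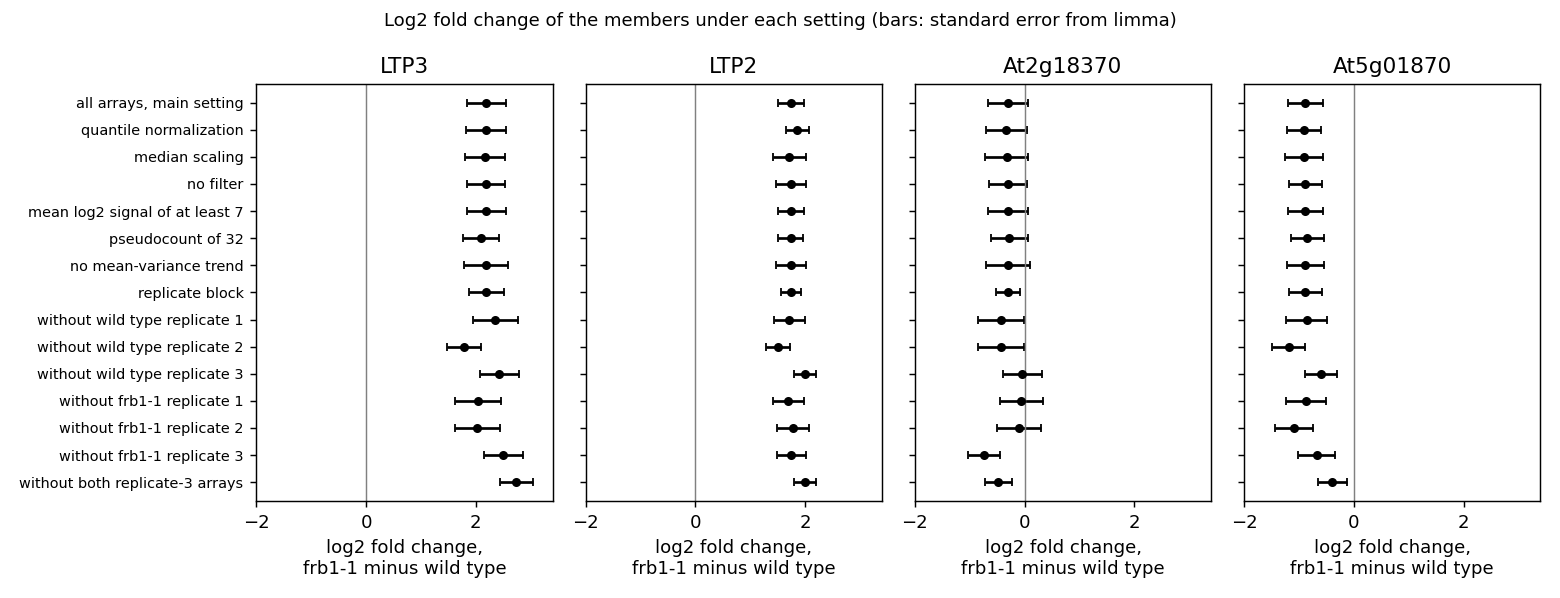
Log2 fold change (x axis, frb1-1 minus wild type, bars are the SE from limma) of the 4 members with all arrays and under 14 alternatives (y axis). LTP3 and LTP2 lie above 0 in each, At5g01870 and At2g18370 below it, with At2g18370 as close to it as -0.04.

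The members varied among replicates in more than one way. On the wild-type arrays all 4 had their highest signal on replicate 3, which also had the lowest median signal of the arrays (154). On the frb1-1 arrays LTP3 and At5g01870, whose genotype differences have opposite signs, had the same order, with replicate 2 highest and replicate 3 lowest. At2g18370 ran the other way there, with replicate 3 highest, and LTP2 was highest on replicate 1. With 3 arrays a genotype such orders are descriptions only.

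In gene order LTP3 and LTP4 lie next to each other on chromosome 5, and LTP2 and LTP1 next to each other on chromosome 2. LTP5 lies beside LTP12, a further LTP gene, on chromosome 3. No probe set was matched to LTP4 or LTP1, nor to either gene of LTP5 and LTP12, so that tandem neighbours of the family could not be compared with each other. The nearest other genes with a named probe set of their own were compared instead. The gene that follows LTP3, At5g59330, had 259, 91.2 and 158 on the wild-type arrays, against 63.5, 104 and 101 on the frb1-1 arrays. Its groups overlapped, with a log2 fold change of -0.83 (SE 0.43, limma adjusted p = 0.956), opposite in sign to that of LTP3. On the other side, At5g59305, beyond LTP4, had mean signals of 4.19 and 3.26 in wild type and frb1-1, at background.

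Beside the pair of LTP2 and LTP1, At2g38550 had a mean signal of 904 in the wild type and 797 in frb1-1, a log2 fold change of -0.19 (SE 0.22, limma adjusted p = 0.99998), and At2g38510 was at background with 8.24 and 24.7. The genes nearest to At2g18370, At2g18360 and At2g18400, had log2 fold changes of -0.22 and -0.06 with groups that overlapped. Beside LTP5, At3g51580 and At3g51620 had -0.03 and 0.42, and beside LTP6, ATSIK and At3g08780 had -0.33 and 0.08. FLDH, which follows At4g33355, had -0.04. The genes nearest to LTP7, At2g15042 and At2g15110, and At4g33310 before At4g33355 had mean signals of 30.3 to 77.3 and were not tested. The groups of At2g15110 did not overlap, with the lower signals in frb1-1, and nothing is read from this near background. None of the tested neighbours was called, where 0.368% of all tested probe sets are called.

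Within 15 genes on either side of LTP3 there were 11 tested genes with log2 fold changes from -0.83 to 0.31, and around LTP2 there were 10, from -0.68 to 0.61. None of them was called in either direction, where 0.368% of all tested probe sets are called. The windows of 15 genes were chosen after seeing the data.

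**Figure D3:**
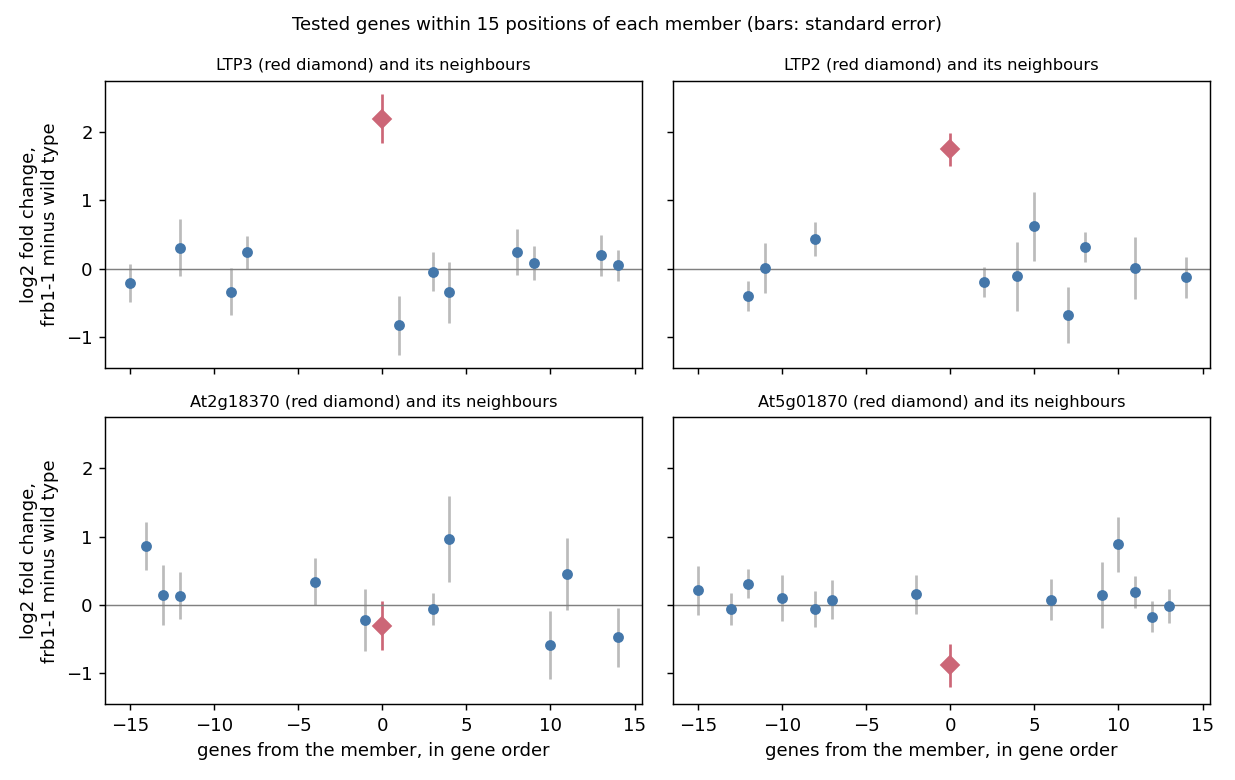
Log2 fold change (y axis, frb1-1 minus wild type, bars are the SE) of tested genes by their distance in gene order (x axis, up to 15 genes either side) from LTP3, LTP2, At2g18370 and At5g01870 (red diamonds). The neighbours (blue) of LTP3 lie between -0.83 and 0.31 and those of LTP2 between -0.68 and 0.61.

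At5g01870 lies on the same end of chromosome 5 as FRB1, with 79 genes between them. Of these, 27 were tested and none was called, where 0.368% of all tested probe sets are called, so that nothing is read from the lack of calls. Their log2 fold changes had a median of -0.01 and a range from -0.56 to 1.27. The 13 tested genes within 15 positions of At5g01870 had log2 fold changes from -0.17 to 0.89, and none had a value as low as its own. The nearest with named probe sets were At5g01860 and At5g01910. At5g01860 had mean signals of 21.3 in the wild type and 55.9 in frb1-1, near background, and was not tested. Its groups did not overlap, with the higher signals in frb1-1. The share of such groups among probe sets below the minimum was not computed, and nothing is read from this separation. At5g01910 had a log2 fold change of 0.08 (SE 0.30).

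Further genes with an LTP domain were counted in 5 lists, other type 1 LTP genes, type 2 LTP genes, LTP genes with a GPI anchor, relatives of the defence signalling protein DIR1 with other small LTP-like genes, and hybrid proline-rich genes. The annotation gives most of these loci no name, so that the lists rest on general knowledge of the families. Of 77 genes listed, 41 had a named probe set, shared by 2 listed genes in some cases, and 22 probe sets were tested. Of these 1 was called higher and none lower (2 at an unadjusted p under 0.05). Over all tested probe sets 0.276% are called higher, 0.092% lower, and 5.96% had an unadjusted p under 0.05. Log2 fold changes were positive for 8 and negative for 14, with a median of -0.17, against 0.01 over all tested probe sets. The share of positive values over all tested probe sets was not computed, and nothing is read from these signs.

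The called gene was At2g37870, annotated as a gene of the protease inhibitor, seed storage and lipid transfer family. Its wild-type arrays gave 204, 109 and 173 and its frb1-1 arrays 546, 694 and 423. The groups did not overlap. The mean signal rose from 162 ± 48.7 (SD, n = 3) to 554 ± 136 (SD, n = 3), a log2 fold change of 1.79 (SE 0.30, limma adjusted p = 0.0248). It stands, as do LTP3 and LTP2, in the list of changed genes chosen on these arrays, which is no independent evidence of its direction. Its adjusted p from limma was 0.0576 to 0.171 when replicate 1 or 2 of either genotype was left out, and 0.0909 without the mean-variance trend. The other tested probe sets of this list were At5g05960, At3g53980 and At5g48490, with log2 fold changes of -0.51, 0.26 and -0.19, and the lowest limma adjusted p among them was 0.941.

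Among 7 tested genes with a GPI anchor, which tethers an LTP to the outer face of the plasma membrane, none was called, and the median log2 fold change was -0.15. At2g48130 had the lowest value of the lists. Its wild-type arrays gave 546, 891 and 1192 and its frb1-1 arrays 529, 515 and 337. The groups did not overlap, though the lowest wild-type array was only just above the highest frb1-1 array. Of all tested probe sets 4.65% had such groups, lower in frb1-1. Its log2 fold change was -0.89 (SE 0.30, limma adjusted p = 0.590). At3g58550 had -0.47 (SE 0.24, adjusted p = 0.960).

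The 2 tested type 2 LTP genes, At3g18280 and At1g48750, had log2 fold changes of -0.10 (SE 0.21) and 0.05 (SE 0.24), at mean signals of 2352 to 4300. Of 9 tested probe sets of hybrid proline-rich genes, whose LTP domain follows a proline-rich stretch, none was called, with log2 fold changes from -0.63 to 0.13 and a median of -0.28. At4g22460 had -0.63 (SE 0.29, limma adjusted p = 0.859), and At2g45180 had -0.28 (SE 0.17, adjusted p = 0.996). Of the type 1 LTP genes outside the 10 members, At4g08530 and At2g15325 had named probe sets, with mean signals of 7.29 to 31.1, and were not tested.

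**Figure D4:**
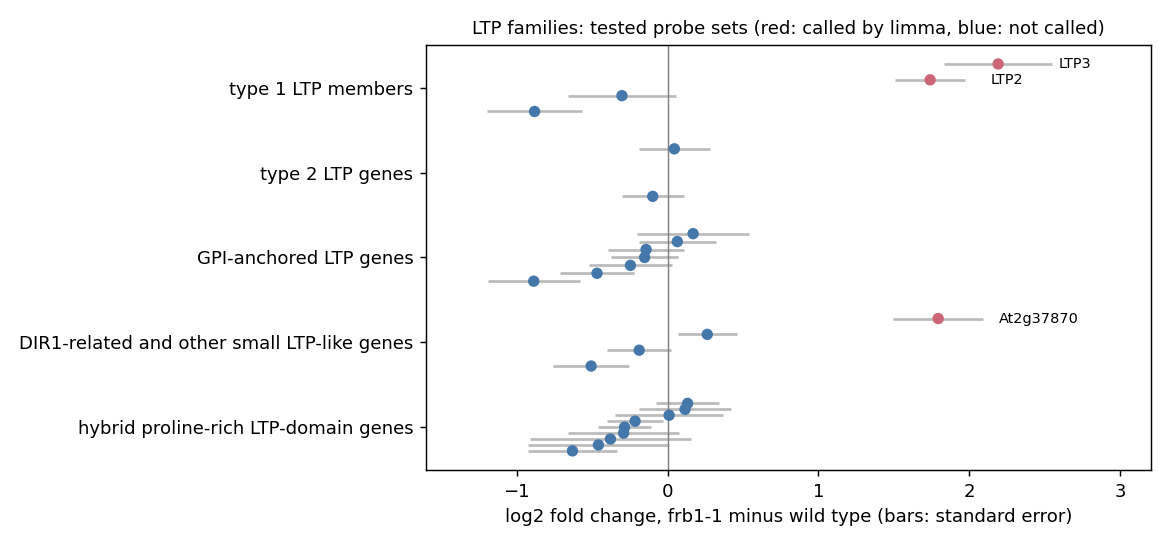
Log2 fold change (x axis, frb1-1 minus wild type, bars are the SE) of each tested probe set of the type 1 LTP members and of 4 further LTP lists (y axis). LTP3, LTP2 and At2g37870 (red, called by limma) lie between 1.74 and 2.19 and all others (blue, not called) between -0.89 and 0.26.

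Genes that ABA is known to induce were counted as a list because LTP3 belongs to that response. Of 20 genes listed, 6 had a named probe set and 4 probe sets were tested. None was called, where 0.368% of all tested probe sets are called (1 had an unadjusted p under 0.05, found for 5.96% of all tested probe sets). All 4 log2 fold changes were positive, and their median was 0.55, against 0.01 over all tested probe sets. How many of all tested probe sets had positive values was not computed, and nothing is read from these signs. The probe set shared by KIN1 and KIN2, cold- and ABA-induced genes, had 2244, 2717 and 3250 on the wild-type arrays, against 5731, 5753 and 4142 on the frb1-1 arrays. The groups did not overlap, as was the case upwards for 6.26% of all tested probe sets. Its log2 fold change was 0.93 (SE 0.22, limma adjusted p = 0.159). COR15B, a cold-regulated gene, had 0.74 (SE 0.34, adjusted p = 0.839), also with groups that did not overlap. The remaining tested genes of the list, LTI30 and COR47, had 0.36 (SE 0.34) and 0.02 (SE 0.31), and their groups overlapped. Of 23 cutin and wax genes, WSD1 alone had a named probe set, with mean signals of 20.7 and 2.34 in wild type and frb1-1, below the minimum, so that genes of the cuticle could not be set beside the LTP genes.

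The named genes whose log2 signals over the 6 arrays were most like those of LTP3, among 8611 named probe sets tested, were MGL (Pearson r = 0.988), At2g37870 (0.985) and At2g41410 (0.983). Those most like LTP2 were At5g05250 (0.999), SQE6 (0.983) and At2g47780 (0.981). The arrays are shared by all of these genes, and the difference between the genotypes is part of each value. The highest of 8611 correlations over 6 arrays are also high through their selection, and nothing is read from their size. MGL, a methionine gamma-lyase, had a mean signal of 204 in the wild type and 480 in frb1-1, and At5g05250 had 468 and 704. Of these 6 genes only At2g37870 is called by limma.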

How the data were processed

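RNA of 3 wild-type and 3 frb1-1 seedling samples was hybridized to ATH1 arrays, and groups and replicate numbers were taken from the sample labels. The deposited values are signal intensities made by the authors with MAS 5.0 at a target of 500. The authors removed absent probe sets afterwards, and detection calls were not used here. Of 22810 probe sets the 64 controls were left out. Those whose log2 signals averaged 6 or more over the arrays, 15218 in number, were compared on log2 signals, with no pseudocount, with limma 3.58.1 in R 4.3.3 (lmFit, eBayes with a mean-variance trend) and the Benjamini-Hochberg adjustment over all of them at 0.05. With 3 arrays a genotype, the smallest two-sided p of an exact permutation test is 0.10. The number of arrays limits the precision. Each p-value of limma sets a difference against the spread between these samples, which limma moderates with that of all tested probe sets. The procedure was tested on simulated data in which arrays were drawn independently, with no effect shared by arrays of the same replicate number.

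Names came from the array's annotation (1 gene for 13513 probe sets, several for 503) and, for 54 more, from the study's list of changed genes. Gene order is that of protein-coding genes in TAIR10.1. No coordinates are given, since no build is named for the arrays, and no sequences were used. The members, the lists and the tests were chosen with earlier results of these data known. Named are all members with a probe set, in each list the genes past the threshold and the 2 with the smallest p, the nearest neighbours of members, and for LTP3 and LTP2 the 3 genes with the most similar signals. At5g48490, At3g53980, CRA1, OLEO2, OLEO3, RCA, LTI30, COR47, At4g08530, At2g15325, WSD1, At5g55450 and At4g12530 were named for completeness, as markers or after their values were seen.

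The alternatives tried were a minimum of 7 or none at all for the mean log2 signal, quantile normalization, scaling to the median, a pseudocount of 32, no mean-variance trend, the replicate number as a block, and each array left out in turn. A fit without either replicate-3 array was chosen after seeing the data.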

Additional observations from a re-analysis of the deposited data

How the results depend on the processing

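LTP3 and LTP2 kept a positive and At5g01870 and At2g18370 a negative log2 fold change in all 14 alternatives, and no member was called lower in any. The alternatives reuse the arrays on which LTP3 and LTP2 were chosen, so that their kept sign is no further evidence. The count of members called higher, 2, was 0 without the mean-variance trend and 0 to 2 when each array was left out. The gene called in the LTP lists, 1, was 0 without the trend and 0 to 1 with each array left out. Over all probe sets, 42 were called higher and 14 lower. These counts were 19 and 9 without the trend, 109 and 28 without both replicate-3 arrays, and 11 to 66 and 5 to 16 with each array left out. With a minimum of 7 for the mean log2 signal 9 were called lower. The causes were not tested. With the replicate number as a block 107 were called higher and 31 lower, and the members called did not change in number. Deviations from the genotype means correlated at 0.04, 0.28 and 0.32 between arrays of the same number. Between arrays of different numbers the values ran from -0.31 to 0.12. Within a genotype the deviations of a probe set cancel out, so that these correlations are not independent and positive ones bring negative ones with them. Replicates 2 and 3 had their highest value with the array of the same number. Wild-type replicate 1 correlated better with frb1-1 replicate 2 (0.12) than with frb1-1 replicate 1. The main fit did not take the numbers as pairs, and whether they mark arrays handled together was not tested. The comparison of tandem LTP genes was not run, since no pair had a matched probe set for both genes. Signals near background limit what dim genes can show.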

Other observations

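Of the LTP lists, 17 probe sets were below the minimum signal, with mean signals of at most 72.4 in the wild type and 62.5 in frb1-1. With no filter none of them was called, and the groups did not overlap for 2, both lower in frb1-1. Among the tested probe sets 10.9% had groups that did not overlap. The share among probe sets below the minimum was not computed, and nothing is read from the count. At5g55450, of the DIR1-related list, gave 113, 39.9 and 64.2 on the wild-type arrays and 4.68, 6.19 and 8.48 on the frb1-1 arrays, in replicate order (adjusted p = 0.198 from limma with no filter). At4g12530, of the hybrid proline-rich list, had 69.3, 41.8 and 58.4 in the wild type and 3.45, 34.0 and 18.3 in frb1-1 (adjusted p = 0.898). These genes were singled out after their values were seen, and no fold is given, since the signals are near background.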
